A study of Homo sapiens with 12 samples.

Results

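The epidermal differentiation complex is a block of chromosome 1q21 in which the genes of the skin barrier lie side by side. Its members were taken as the GENCODE protein-coding genes of a 1.9 Mb interval of chromosome 1 (hg38) whose symbols start with S100A, SPRR, LCE or FLG, together with IVL, LORICRIN, CRNN, RPTN, HRNR and TCHH. This gave 54 of 19618 protein-coding genes, of which 16 were S100A, 19 LCE, 11 SPRR and 2 FLG genes, and each of the other 6 symbols named 1 gene. From S100A10 to S100A1 they span chr1:151982915-153632039. Another 15 protein-coding genes lay within the interval.

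CUT&RUN uses a nuclease tethered to an antibody to release the DNA on which the antibody's target sits. It was applied to RT112, a line from a human transitional cell carcinoma of the bladder, which served in the study as an ARID1A wild-type line. The 12 samples formed 4 groups of 3 replicates, which differed in the antibody alone: ARID1A from Abcam, ARID1A from CST, H3K4me3, and IgG as a control. No treatment is given for any group, and all of them come from a single cell line. ARID1A is a DNA-binding subunit of the SWI/SNF (BAF) chromatin remodelling complex, and H3K4me3, the trimethylation of histone H3 on lysine 4, marks the start sites of active genes. The 3 lists analysed give the start and end of each called region, merged by the authors over the replicates. They carry no signal or replicate values and their depth is unknown, so the comparisons below are counts and shares without a test, and the width of a region is the one graded measure. IgG regions were not analysed here.

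Genes of the complex are switched on as keratinocytes leave the basal layer. LCE and SPRR proteins, involucrin (IVL) and loricrin (LORICRIN) are cross-linked into the cornified envelope that replaces the plasma membrane of the dying cell. Filaggrin (FLG) and its relatives FLG2, HRNR, RPTN, CRNN and TCHH are S100-fused proteins that bind keratin filaments or the envelope. The S100A genes at either end of the block encode small calcium-binding proteins, many of which are made in epithelia outside the skin. Binding sites for AP-1, the JUN and FOS family of transcription factors, are known from the promoters of several of these genes, IVL among them.

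The results turned on a set of promoters with ARID1A but no H3K4me3. Their 200 bases before the start site of the canonical transcript are printed here as the reference genome gives them (hg38), 5′ to 3′ on the strand of the gene, with the AP-1 word TGACTCA or its reverse complement TGAGTCA in capitals. IVL, SPRR1A, SPRR3 and SPRR1B had regions of both ARID1A antibodies over the start site, and all of them hold the word. S100A9 had both antibodies and no word, as did LCE1E and S100A12, which are not printed. S100A5, also not printed, had both antibodies and the word.
IVL (chr1:152908346-152908545, plus strand): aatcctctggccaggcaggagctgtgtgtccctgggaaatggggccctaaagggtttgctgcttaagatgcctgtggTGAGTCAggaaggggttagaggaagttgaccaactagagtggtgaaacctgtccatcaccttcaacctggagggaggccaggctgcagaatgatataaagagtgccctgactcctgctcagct
SPRR1A (chr1:152983881-152984080, plus strand): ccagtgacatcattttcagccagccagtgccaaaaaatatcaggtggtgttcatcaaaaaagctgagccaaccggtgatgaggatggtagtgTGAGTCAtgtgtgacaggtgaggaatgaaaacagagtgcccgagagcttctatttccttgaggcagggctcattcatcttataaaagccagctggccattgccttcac
SPRR3 (chr1:153001549-153001748, plus strand): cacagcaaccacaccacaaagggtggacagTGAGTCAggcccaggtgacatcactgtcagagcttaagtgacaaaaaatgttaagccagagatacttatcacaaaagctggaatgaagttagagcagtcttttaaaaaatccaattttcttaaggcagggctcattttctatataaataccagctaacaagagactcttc
SPRR1B (chr1:153031003-153031202, plus strand): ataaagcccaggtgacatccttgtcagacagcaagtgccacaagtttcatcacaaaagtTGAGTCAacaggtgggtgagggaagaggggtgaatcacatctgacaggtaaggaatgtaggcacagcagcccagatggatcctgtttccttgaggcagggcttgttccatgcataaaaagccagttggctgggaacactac
S100A9 (chr1:153357654-153357853, plus strand): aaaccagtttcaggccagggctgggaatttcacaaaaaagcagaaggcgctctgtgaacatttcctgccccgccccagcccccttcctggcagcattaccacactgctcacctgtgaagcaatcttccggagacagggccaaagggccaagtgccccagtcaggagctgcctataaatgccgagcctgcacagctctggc

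SPRR2A and LORICRIN are shown for contrast, since they hold the same word but none of the 3 lists placed a region at their promoters. S100A10, with all 3 lists at its promoter, is shown for its base composition.
SPRR2A (chr1:153057513-153057712, minus strand): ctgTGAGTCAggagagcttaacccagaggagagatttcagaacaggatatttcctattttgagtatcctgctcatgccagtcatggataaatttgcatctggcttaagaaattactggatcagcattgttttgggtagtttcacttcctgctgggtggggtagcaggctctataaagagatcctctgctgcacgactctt
LORICRIN (chr1:153259487-153259686, plus strand): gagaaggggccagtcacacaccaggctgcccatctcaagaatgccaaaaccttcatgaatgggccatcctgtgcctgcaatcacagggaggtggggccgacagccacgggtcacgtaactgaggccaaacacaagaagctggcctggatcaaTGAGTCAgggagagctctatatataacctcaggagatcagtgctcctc
S100A10 (chr1:151993860-151994059, minus strand): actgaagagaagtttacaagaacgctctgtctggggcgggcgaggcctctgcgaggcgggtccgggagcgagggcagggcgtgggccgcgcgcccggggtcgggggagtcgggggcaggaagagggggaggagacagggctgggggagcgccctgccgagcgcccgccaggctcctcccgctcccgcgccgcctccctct

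Most promoters of the complex carried no region, and those that did fell into a group with H3K4me3 and a group without. A promoter was the 1 kb on either side of any annotated start site of a protein-coding transcript, and a gene was counted when a region overlapped it by at least 1 bp. An Abcam region lay at 17 of 54 members (31.5%, exact 95% interval 19.5 to 45.6), against 46.7% of all protein-coding genes. A CST region lay at 15 members (27.8%, 16.5 to 41.6), against 41.9% of all genes. The same 15 members had both antibodies, against 38.2% of all genes. H3K4me3 lay at 9 members (16.7%, 7.92 to 29.3), against 53.1% of all genes, and these 9 were S100A genes. A total of 37 members (68.5%, 54.4 to 80.5) had no region of any list, against 39.7% of all genes. The Clopper-Pearson intervals cover counting error alone, and neighbouring members shared some regions.

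**Figure D1:**
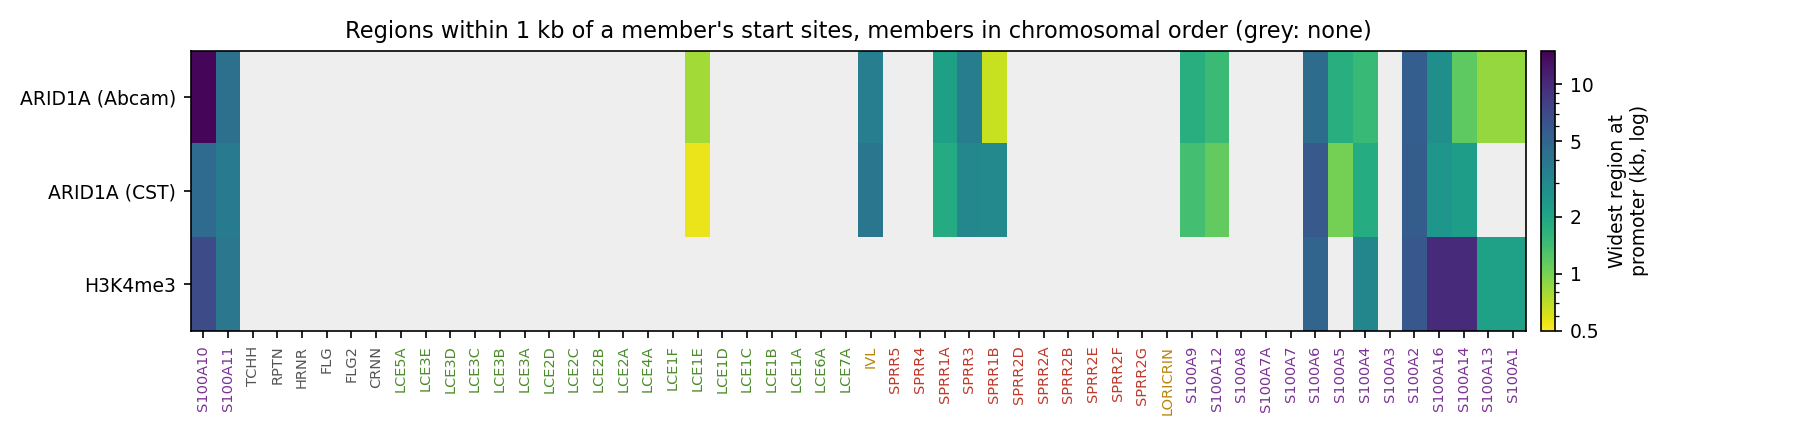
Width in kb (log colour scale) of the widest region within 1 kb of a start site of each of the 54 members, in chromosomal order, for the 2 ARID1A antibodies and H3K4me3, with grey for no region. Symbols are coloured by family. Filled H3K4me3 tiles stand at S100A genes at both ends, and ARID1A tiles without H3K4me3 stand at LCE1E, IVL, SPRR1A, SPRR3, SPRR1B, S100A9, S100A12 and S100A5.

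Among the 9 members with H3K4me3, 7 (77.8%, 40.0 to 97.2) also had both ARID1A antibodies, against 63.8% of all genes with H3K4me3. Among the 45 members without H3K4me3, 8 (17.8%, 8.0 to 32.1) had both antibodies, against 9.40% of all genes without H3K4me3 (866 of 9209). Both background shares lay inside the members' intervals. By family, both antibodies were found at 10 of 16 S100A genes, 3 of 11 SPRR genes, 1 of 19 LCE genes and IVL, and at neither LORICRIN nor any of the 6 S100-fused type genes. Of the 15 other genes of the interval, CHTOP and ILF2 had all 3 lists.

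**Figure D2:**
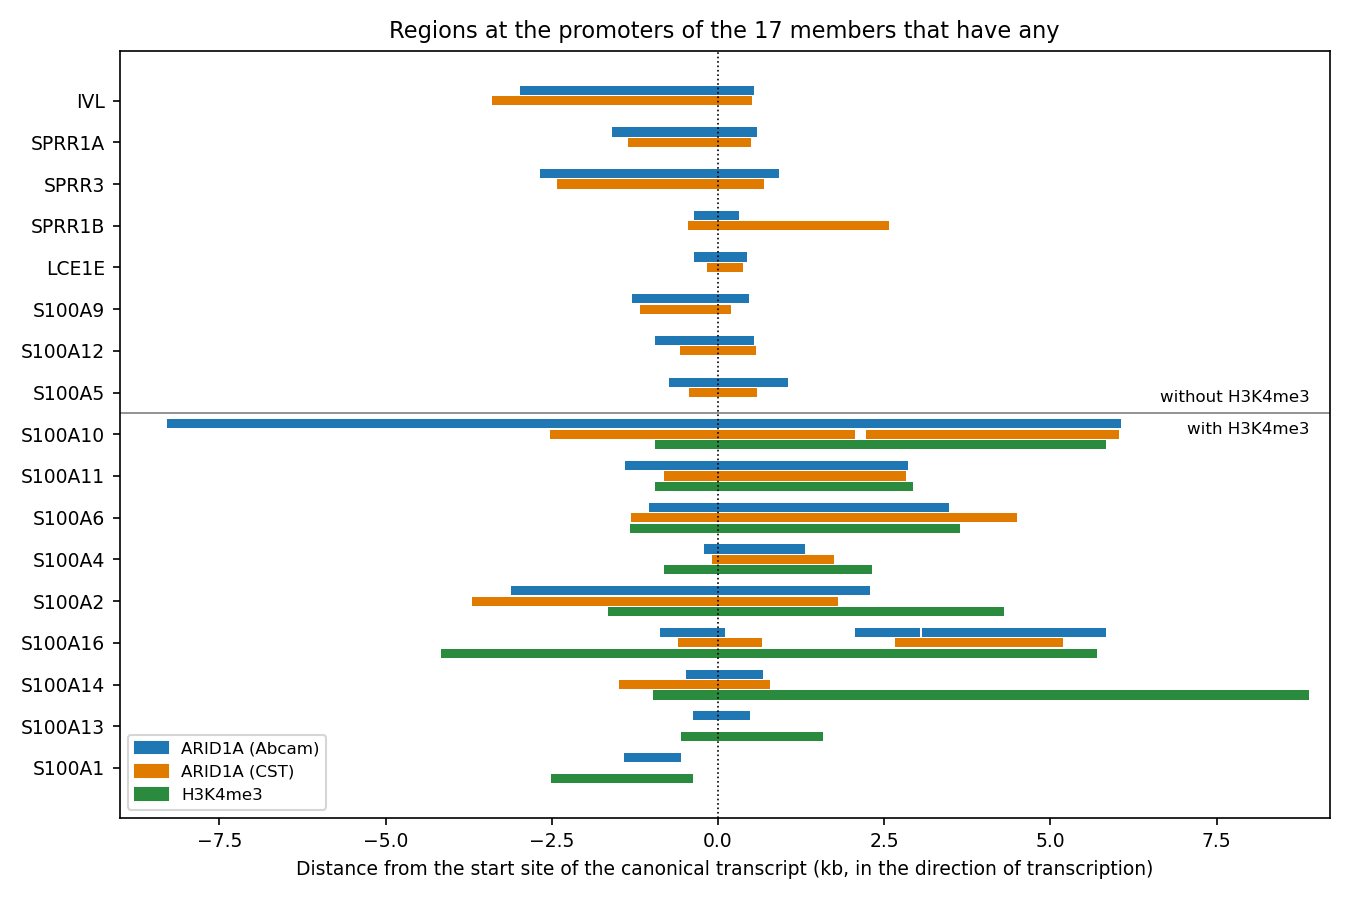
Regions at the promoters of the 17 members that had any, as bars along the distance in kb from the start site of the canonical transcript (dotted line, negative values upstream), for Abcam (blue), CST (orange) and H3K4me3 (green). The 8 members above the grey line lacked H3K4me3. The Abcam region of S100A10 reached 8292 bp upstream, and those of S100A13 and S100A1 are a single region.

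At IVL, SPRR1A and SPRR3 the regions of both ARID1A antibodies reached further upstream than downstream of the start site, as they did at S100A9 and S100A2. This was not so at LCE1E or for the CST region of SPRR1B. IVL encodes involucrin, an early scaffold of the envelope. Its Abcam region (chr1:152905568-152909091) was 3524 bp wide, wider than 95.8% of that list, and ran from 2978 bp upstream to 545 bp downstream of the start site. Its CST region (chr1:152905142-152909063) was 3922 bp wide, wider than 97.6% of its list. The Abcam region holds 2 AP-1 words, both also inside the CST region, which begin at positions -2121 and -123 counted backwards from the start site.

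SPRR1A, SPRR3 and SPRR1B encode small proline-rich proteins that bridge other envelope proteins. SPRR3 had an Abcam region of 3600 bp (chr1:152999066-153002665) and a CST region of 3109 bp (chr1:152999327-153002435), wider than 96.1% and 94.4% of their lists. Its AP-1 words begin at -1940 and -170, inside both regions. SPRR1A had an Abcam region of 2178 bp (chr1:152982486-152984663) and a CST region of 1860 bp (chr1:152982720-152984579), with 1 AP-1 word at -108.

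The antibodies differed in extent at SPRR1B. Its Abcam region (chr1:153030844-153031512) was 669 bp wide, narrower than all but 2.65% of the list. The CST region (chr1:153030754-153033773) was 3020 bp wide and also overlapped another Abcam region, of 1355 bp, that begins 1428 bp downstream of the start site. The AP-1 word at -141 lay inside both promoter regions. The widths of SPRR1A and SPRR3 were alike between antibodies, and so were those of IVL.

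LCE1E was the LCE gene with ARID1A, and its regions were among the narrowest of their lists. The Abcam region (chr1:152785892-152786691) measured 800 bp and the CST region (chr1:152786084-152786634) 551 bp, wider than 6.67% and 1.37% of their lists. The other 18 LCE genes, which encode late envelope proteins, had none in any list.

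S100A9, S100A12 and S100A5 also had both ARID1A antibodies without H3K4me3. S100A9 encodes a chain of calprotectin, and its Abcam and CST regions were 1756 bp (chr1:153356563-153358318) and 1382 bp (chr1:153356675-153358056). S100A12 encodes a related inflammatory protein, calgranulin C, with regions of 1486 bp (chr1:153375082-153376567) and 1133 bp (chr1:153375054-153376186). S100A5 lies between S100A6 and S100A4, which both had H3K4me3, and had regions of 1790 bp (chr1:153539883-153541672) and 1020 bp (chr1:153540348-153541367). At S100A8, which encodes the partner chain of S100A9 in calprotectin, the nearest region was an Abcam region of 1302 bp that begins 2418 bp upstream of the start site, and the nearest region shared by both antibodies was 14.5 kb away.

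The S100A genes with all 3 lists carried some of the widest regions of the series. S100A10, which encodes the light chain partner of annexin A2, had an Abcam region of 14350 bp (chr1:151987802-152002151), the second widest of 37501. The CST list held 4 regions under it, of 3801, 4579, 1880 and 1958 bp. The H3K4me3 region (chr1:151988020-151994803) was 6784 bp wide and ended 944 bp upstream of the start site, whereas the Abcam region ran on to 8292 bp upstream. The widths of merged regions depend on the joining of neighbours, and the CST regions there were separate.

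S100A2, known from basal keratinocytes, had an Abcam region of 5393 bp (chr1:153563565-153568957), a CST region of 5502 bp (chr1:153564046-153569547) and an H3K4me3 region of 5957 bp (chr1:153561545-153567501). The ARID1A regions were wider than 99.3% and 99.5% of their lists. Both began further upstream (3113 and 3703 bp) than the H3K4me3 region (1657 bp). S100A6, which encodes calcyclin, had regions of 4520 bp (Abcam, chr1:153532515-153537034), 5803 bp (CST, chr1:153531498-153537300) and 4965 bp (H3K4me3, chr1:153532347-153537311), and the CST region was wider than 99.6% of its list.

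S100A11 and S100A4 had narrower sets. The S100A11 regions were 4270 bp (Abcam, chr1:152034140-152038409), 3644 bp (CST, chr1:152034174-152037817) and 3878 bp (H3K4me3, chr1:152034069-152037946) and ended within about the same distance downstream, at 2864, 2830 and 2935 bp. The S100A4 regions were 1525 bp (Abcam, chr1:153544494-153546018), 1823 bp (CST, chr1:153544067-153545889) and 3134 bp (H3K4me3, chr1:153543485-153546618). At S100A4, the H3K4me3 region extended beyond both ARID1A regions on either side.

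S100A16 and S100A14, adjacent genes on the minus strand, lay under 1 H3K4me3 region of 9868 bp (chr1:153607435-153617302), wider than 99.7% of the list. ARID1A was in separate pieces beneath it. S100A16 had 3 Abcam regions of 2775, 975 and 985 bp and 2 CST regions of 2527 and 1274 bp, and S100A14 had an Abcam region of 1159 bp (chr1:153615646-153616804) and a CST region of 2262 bp (chr1:153615550-153617811). S100A13 and S100A1, which are transcribed away from each other, shared an H3K4me3 region of 2138 bp (chr1:153625925-153628062) and an Abcam region of 854 bp (chr1:153627024-153627877) with no CST region. That Abcam region covered the canonical start site of S100A13 and ended 557 bp upstream of that of S100A1.

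All 3 lists lacked a region at the promoters of S100A8, S100A7A, S100A7 and S100A3, of 8 SPRR genes (SPRR5, SPRR4, SPRR2D, SPRR2A, SPRR2B, SPRR2E, SPRR2F and SPRR2G), or of LORICRIN, TCHH, RPTN, HRNR, FLG, FLG2 and CRNN. A few of them missed the window by a short distance. A shared ARID1A region of 1375 bp began 1088 bp upstream of SPRR2A, another began 2497 bp upstream of SPRR4, and 1 of 3292 bp began 3106 bp upstream of RPTN. TCHH, which encodes trichohyalin of the hair follicle, held an H3K4me3 region of 4017 bp within its gene body (chr1:152108871-152112887), 2557 bp from the start site, with an Abcam region of 1697 bp inside it and no CST region.

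Near-identical copies limit what can be read from some of these absences, because the authors removed reads that did not map to a unique place. The share of 31-base words of the promoter window that occur more than once in the genome had a median of 1.98% over the members and of 1.01% over 2030 genes of chromosome 1. It reached 38.9% at LCE2B, 37.4% at LCE2C, 29.7% at SPRR2B, 26.2% at SPRR2E, and 26.0% at both S100A7 and S100A7A. Members with a region also held repeated words, up to 21.1% at S100A11, with 14.6% at S100A12, 14.1% at S100A2 and 10.1% at S100A10. Among members without any region the median was 3.86%. The share was 0.0% at FLG2, HRNR, TCHH, RPTN, LORICRIN, LCE4A, LCE6A, LCE7A, SPRR5 and S100A3, which had no region either, and 2.89% at FLG. For members with repeated words, the part of repeated sequence in the absent regions was not tested.

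ARID1A regions were dense in the interval and recurred along it, while H3K4me3 regions lay toward its ends. The interval held 69 Abcam regions (36.3 per Mb, against 15.3 on chromosome 1 and 12.9 on chromosomes 1 to 22 and X), 63 CST regions (33.2, against 13.3 and 11.3) and 13 H3K4me3 regions (6.84, against 4.46 and 3.35). From the first to the last member the densities were 34.6 (Abcam), 31.5 (CST) and 4.85 (H3K4me3) per Mb. The H3K4me3 regions at CHTOP, SNAPIN, ILF2, INTS3 and SLC27A3 lay past the last member. Protein-coding genes of the interval were also dense, at 36.3 per Mb against 6.74. Abcam regions overlapped by CST are called shared regions, and there were 56 of these (29.5 per Mb, against 9.83). The antibodies overlapped about as often as elsewhere, with 81.2% of Abcam regions (69.9 to 89.6) overlapping CST against 76.3% of the list, and 90.5% of CST regions (80.4 to 96.4) overlapping Abcam against 87.5%. The shared regions had a median width of 1620 bp, against 1636 bp in all.

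**Figure D3:**
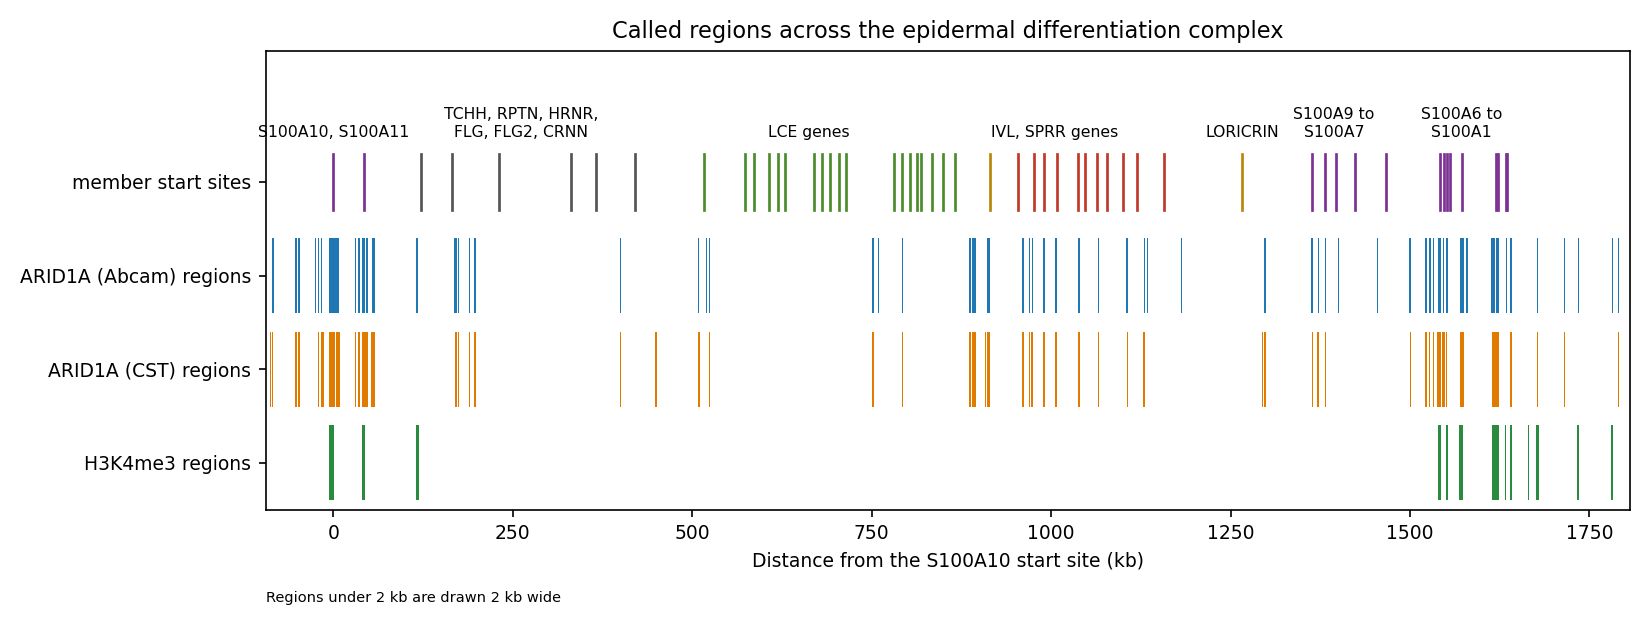
Regions of the 3 lists and start sites of the 54 members, coloured by family, against the distance in kb from the S100A10 start site. H3K4me3 regions stand at either end and leave a stretch of 1.42 Mb without any, whereas regions of both ARID1A antibodies recur along it between longer gaps over the LCE and FLG genes.

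Of the 56 shared regions, 20 lay at promoters (35.7%, 23.4 to 49.6, against 25.3% of all shared regions) and 36 between them. Among the 20 promoter regions, 11 overlapped H3K4me3 (55.0%, 31.5 to 76.9), below the 79.5% of all shared promoter regions. Conversely, 8 of 13 H3K4me3 regions (61.5%, 31.6 to 86.1) overlapped a shared region, against 61.9% of the list.

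The stretch without H3K4me3 ran from TCHH to S100A6 (chr1:152112888-153532346, 1.42 Mb) and held the canonical start sites of 43 members and of 51 genes in all. It was longer than 96.1% of 9668 stretches between H3K4me3 regions, and it was compared with the 606 others of at least 1 Mb, a comparison chosen after its values had been seen. It held 35.9 genes per Mb, against a median of 1.24, and none of the 606 was as gene-dense. It held 31 shared ARID1A regions, or 21.8 per Mb against a median of 3.32, and 13 of the 606 were at least as dense in ARID1A. The next most gene-dense stretches, on chromosome 11 (35.7 genes per Mb) and elsewhere on chromosome 1 (32.9 genes per Mb), held 3 and 1 shared regions, or 1.26 and 0.67 per Mb.

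**Figure D4:**
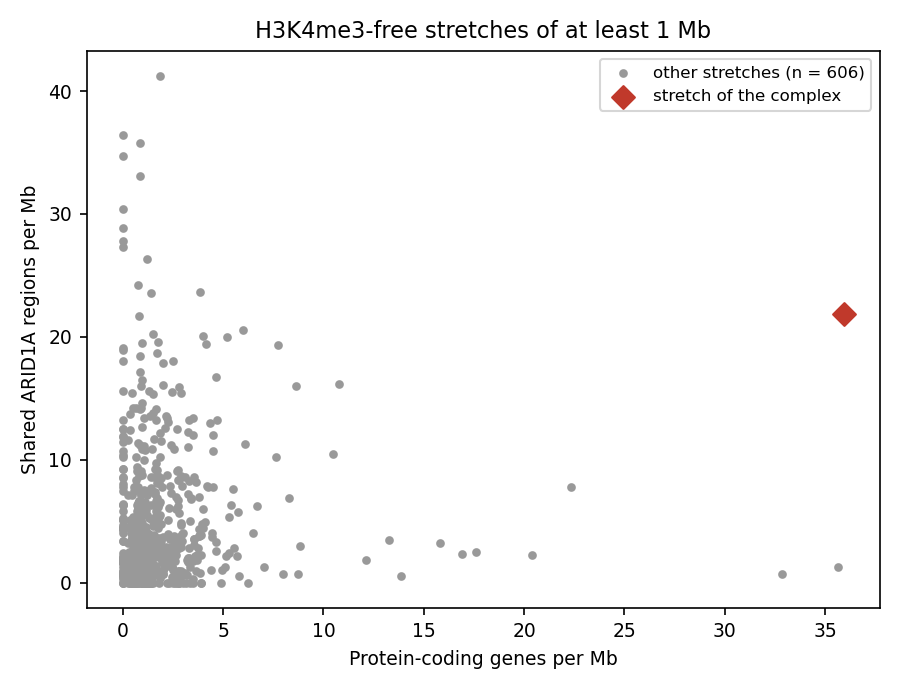
Shared ARID1A regions per Mb against protein-coding genes per Mb in stretches of at least 1 Mb without H3K4me3, for the complex (red diamond) and the 606 others (grey points). The complex stands at 35.9 genes and 21.8 shared regions per Mb, while the other stretches with over 30 genes per Mb lie near the horizontal axis.

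Within the complex, shared regions were uneven. The longest gap without a region of either antibody was 227 kb (chr1:152518141-152744807) over 10 LCE genes, from LCE3E to LCE4A, longer than 94.8% of 40840 gaps. The next, of 200 kb (chr1:152192045-152392514), held HRNR, FLG and FLG2. A gap of 112 kb held LORICRIN, and 1 of 93.1 kb held LCE1D, LCE1C, LCE1B, LCE1A, LCE6A and LCE7A. The median distance from a start site to the nearest shared region was 40.8 kb for LCE genes, 32.3 kb for the S100-fused type genes, 3.74 kb for SPRR genes and 0.0 kb for S100A genes. Over all 45 members without H3K4me3 it was 20.0 kb, against 44.5 kb for all genes without H3K4me3.

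The widest shared region between promoters lay 18857 bp upstream of IVL (chr1:152885439-152889689, 4251 bp in the Abcam list), between IVL and SMCP, whose promoter had no region. The other shared regions over 3 kb lay 44857 bp downstream of S100A10 (3742 bp), 30495 bp downstream of LORICRIN (3660 bp) and 3106 bp upstream of RPTN (3292 bp). Start sites of genes that are not members were nearer to some of these regions. They were SMCP at 7117 bp from the region upstream of IVL, THEM4 at 34343 bp from that downstream of S100A10, and PGLYRP3 at 16877 bp from that downstream of LORICRIN. RPTN was the nearest member to 4 shared regions, all of them upstream within 30525 bp, although its promoter carried none. SPRR5, SPRR4, SPRR2A, SPRR2E and SPRR2F were likewise nearest to shared regions without one at the promoter. The same was true of CRNN, LCE1F, LCE5A, LCE7A, LORICRIN, S100A7 and S100A1. The most shared regions were nearest to S100A11 (7) and S100A10 (6), of which 6 and 4 lay between promoters.

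The central 200 bases of the widest such regions, whose nearest members were IVL and S100A10, are given to show distal sites, on the plus strand of hg38. The AP-1 word stands at the end of the 200 bases downstream of S100A10 and is not in those upstream of IVL.
upstream of IVL (chr1:152887465-152887664): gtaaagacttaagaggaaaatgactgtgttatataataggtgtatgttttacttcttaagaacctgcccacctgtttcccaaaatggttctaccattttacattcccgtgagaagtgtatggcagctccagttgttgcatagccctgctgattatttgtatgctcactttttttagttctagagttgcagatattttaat
downstream of S100A10 (chr1:151945751-151945950): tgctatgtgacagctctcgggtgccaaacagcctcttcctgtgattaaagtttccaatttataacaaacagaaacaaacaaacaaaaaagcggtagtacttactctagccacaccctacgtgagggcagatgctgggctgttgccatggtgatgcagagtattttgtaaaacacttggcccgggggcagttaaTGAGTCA

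AP-1 words were frequent just before the members' start sites. At the centres of the shared ARID1A regions they were no more frequent than in all shared regions. In the 200 bp before the start site, TGACTCA on either strand was found at 11 of 54 members (20.4%), against 2.51% of all protein-coding genes. The share was above that of the matching genes in each class of member. The word was found at 5 of the 8 members with ARID1A and no H3K4me3 (IVL, SPRR1A, SPRR3, SPRR1B and S100A5), against 7.39% of the 866 genes of that kind. It was found at 5 of the 37 members with no region (SPRR2D, SPRR2A, SPRR2E, SPRR2F and LORICRIN), or 13.5%, against 3.2% of all genes with no region. S100A2 was the 1 member of 9 with H3K4me3 that had the word (11.1%, against 1.48% of all genes with H3K4me3). The word stood in this window at 3 of 3 SPRR genes with ARID1A and at 4 of 6 SPRR2 genes, which lacked ARID1A at the promoter.

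In the central 200 bp of shared regions, the word was found in 4 of 56 (7.14%, 1.98 to 17.3), against 14.9% of 28609 shared regions, a share inside that interval. At the 9 shared promoter regions without H3K4me3 it was in 0 (exact interval 0.0 to 33.6%), against 12.5% of such regions, since the words of IVL, SPRR1A, SPRR3 and SPRR1B lie between the centre and an edge. With the whole of each region searched, the word was in 53.6% of the 56 shared regions and in 55.6% of all shared regions. Among the other words, GGAATG, known from TEAD sites, was found at 13 members (24.1%) against 7.46% of all genes. It stood at 4 of the 8 members with ARID1A and no H3K4me3 (SPRR1A, SPRR3, SPRR1B and S100A5). It also stood at 9 of the 37 members with no region, SPRR4 among them, but at no SPRR2 gene. The GATA word AGATAA was found at 7 members (13.0%, against 4.76% of all genes), all of them with no region. The C/EBP word TTGCNNAA was found at 8 (14.8%, against 5.4%), of which 6 had no region. The GRHL word AACNGGTT and the FOX word TGTTTAC were found at 3 members each (5.56%, against 1.03% and 1.59%). A match is a description of the sequence and not of binding. Median GC content around the start site was 49.3% over the members and 61.4% over all genes, and the part of base composition in the word shares was not tested. Related genes were counted separately. LCE2A, LCE2B, LCE2C and LCE2D each had both the C/EBP word and GGAATG. The AP-1 words of SPRR2D, SPRR2A, SPRR2E and SPRR2F begin at -196, -197, -195 and -196.

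The base composition of the promoters set the complex apart from other genes. CpG content, as observed over expected in the 500 bp on either side of the start site, had a median of 0.119 over the members, against 0.727 over all genes. The 9 members with H3K4me3 had a median of 0.23, against 0.802 over all genes with H3K4me3, of which 1.58% lay below that member median. They ranged from 0.107 at S100A2 to 0.781 at S100A10, with 0.595 at S100A11 and 0.5 at S100A6. The 8 members with ARID1A and no H3K4me3 had a median of 0.117, against 0.6 over all genes of that kind.

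The TATA word TATAAA stood within 200 bp before the start site of 30 members (55.6%), against 7.8% of all genes. It was found at 23 of the 37 members with no region (62.2%, against 13.4% of all genes with no region). It was found at 5 of the 8 members with ARID1A and no H3K4me3 (62.5%, against 9.82% of all genes of that kind). Among the 9 members with H3K4me3, S100A4 and S100A13 had it (22.2%, against 3.53% of all genes with H3K4me3). GGGCGG, known from SP and KLF sites and visible in the S100A10 sequence, was found at 5 members (9.26%) against 56.7% of all genes, and 3 of these 5 (S100A10, S100A11 and S100A6) had H3K4me3.

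**Figure D5:**
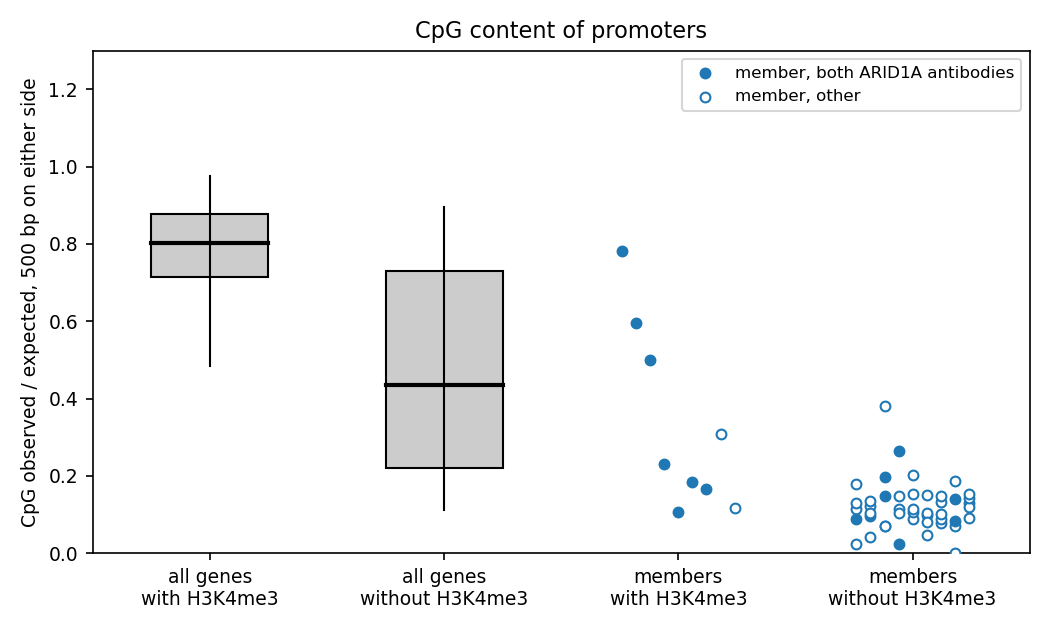
CpG observed over expected within 500 bp on either side of the start site. Grey boxes give the median and quartiles of all genes with and without H3K4me3 and the lines their 5th to 95th percentiles, and points are members, filled where both ARID1A antibodies had a region. Members with H3K4me3 spread from 0.107 to 0.781, and those without lie at or below 0.38.

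The labelled cell type was checked against marker genes. The urothelial markers KRT7, KRT8, KRT18, KRT19, GATA3, PPARG, FOXA1, ELF3 and FGFR3 each had all 3 lists at the promoter. None of 5 markers of differentiated keratinocytes (KRT1, KRT10, KRT2, CDSN and CASP14) had a region of any list. H3K4me3 was found at 0 of 5 leukocyte and 0 of 5 fibroblast markers, although CD68, COL1A1 and FAP had both ARID1A antibodies.

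Other genes of cornification were looked up beside the members. A list of 8 other genes of the complex (TCHHL1, KPRP, SMCP, LELP1, PRR9, PGLYRP3, PGLYRP4 and C1orf68) had no region of any list. CRCT1, which lies between LCE5A and LCE3E, was not on that list. It had an Abcam region of 923 bp, 492 bp from its start site, without a CST or H3K4me3 region at the promoter. Of 4 S100 genes elsewhere, S100P had all 3 lists, with regions of 2766 bp (Abcam), 2158 bp (CST) and 5894 bp (H3K4me3), and S100B, S100G and S100Z had none. Of 26 envelope and barrier genes elsewhere, 5 had both antibodies and 19 had no region, against 38.2% and 39.7% of all genes. Among those 5, 2 had ARID1A without H3K4me3, as did IVL, SPRR1A, SPRR3 and SPRR1B. They were SCEL (3551 and 4247 bp), which encodes the envelope precursor sciellin, and ABCA12 (2703 and 2750 bp), a lipid transporter of lamellar granules. H3K4me3 lay at 5 of the 26, and over all genes without H3K4me3 the share with both antibodies was 9.40%. EVPL, ALOXE3 and LY6D had all 3 lists, and ALOX12B, CALML5, CASP14 and CDSN were among the 19.

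Of 19 transcription factors of epidermal differentiation, 14 had both ARID1A antibodies, against 38.2% of all genes, and 17 had H3K4me3, against 53.1%. Among the 17 with H3K4me3, 13 had both antibodies, against 63.8% of all genes with H3K4me3. Among the widest ARID1A regions were those of ELF3 (4299 and 4450 bp), GRHL2 (4358 and 3024 bp) and FOSL2, an AP-1 subunit (3401 and 3215 bp). ZNF750 had both antibodies (2979 and 2127 bp) without H3K4me3, and TP63, which encodes the master regulator p63 of stratified epithelia, had H3K4me3 (2799 bp) without ARID1A.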

How the data were processed

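RT112 cells were assayed by CUT&RUN with 4 antibodies, in 3 replicates each. The authors trimmed reads with cutadapt, aligned them to the human genome (hg38), removed duplicates and reads that did not map uniquely, scaled by E. coli spike-in DNA, called regions with SEACR and merged replicates with bedtools. The submitters' processing notes give no versions. The methods name a relaxed SEACR mode and state that a very small top fraction of peaks was retained, and the deposited list names a stringent mode, which leaves the calling threshold uncertain. Which library belonged to which preparation batch is not given in the sources used, and whether replicates were separate cultures is not stated.

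The 3 deposited lists hold chromosome, start and end, without signal, score or p-value. Signal just under the threshold leaves no region, and a merged region may come from a single replicate. Regions come from a population of cells, so fewer cells with a mark and less of it per cell cannot be told apart.

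Protein-coding genes came from GENCODE 44 and were merged by symbol. Chromosomes 1 to 22 and X were used, and regions elsewhere (152 of Abcam, 159 of CST, 14 of H3K4me3) were left out. Promoters were 1 kb on either side of any start site of a protein-coding transcript, and distances and sequences used the canonical transcript. Positions count from 1. Overlaps were of at least 1 bp. Shares carry Clopper-Pearson 95% intervals. The share of repeated 31-base words was counted over the whole reference on both strands. The 8 words were searched on both strands. Every member with a region was named, and from other lists up to 4 genes with the widest regions and up to 4 without ARID1A. A few genes of these lists are not reported here. The members and lists were chosen with earlier results of these data known. Python 3.11.15, pandas 2.3.3, numpy 2.4.6 and scipy 1.17.1 were used, and the code was tested on simulated data. The closing section gives the alternatives.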

Additional observations from a re-analysis of the deposited data

How the results depend on the processing

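No paired analysis was possible because the lists are merged over replicates, and no replicate could be left out. The 42 alternatives covered narrower (500 bp) and wider (3 kb) promoter windows, the most upstream start site, a width of at least the median of the list, joining of regions under 500 bp apart, larger overlaps and other limits of the interval, and 35 of them left the value within 1.5 times that of the report. The other 7 were as follows. With regions at least as wide as the list's median, 9 members had both antibodies (21.4% of all genes), the interval held 17.9 Abcam, 18.9 CST and 4.21 H3K4me3 regions per Mb, and 26 regions were shared, fewer by construction. LCE1E, SPRR1B, S100A9, S100A12, S100A5 and S100A14 lost the call of both antibodies. Of the members with both antibodies and no H3K4me3, IVL, SPRR1A and SPRR3 kept it. The share of shared regions with the AP-1 word was 21.4% in the central 400 bp (26.6% of all shared regions) and 53.6% in the whole region (55.6%). With 3 kb windows SPRR4 and SPRR2A gained both antibodies, and TCHH, S100A5 and S100A3 gained H3K4me3. With the most upstream start site S100A4 lost both. Without depth, an absent region cannot be read as an absent protein or mark.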
